A study of Mus musculus with 7 samples.

Results

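The microRNA miR-9 was examined in small RNA of extracellular vesicles, small membrane-enclosed particles shed by cells, isolated from mouse adipose tissue. The entries were taken by name from the combined count table: mmu-miR-9-5p and mmu-miR-9-3p, the 2 arms of the miR-9 precursor, and mmu-miR-9b-3p, an entry annotated on the opposite strand. They are 3 of the 1084 entries of the table, and all 3 passed the filter on low counts. They were chosen by values of these same libraries, namely the HFD against Chow fold changes of both arms and the shared counts of miR-9-5p and miR-9b-3p. Their diet values are therefore given as a description, no p-value of theirs is printed, and counts of calls stand only beside the share over all entries.

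The 7 libraries came from male C57BL/6J mice, 4 on a chow diet (Chow 1 to Chow 4) and 3 on a high-fat diet (HFD 1 to HFD 3), with 12 weeks of feeding per the design text, and no genetic change is labelled in either group. The age of the mice and the fat depot are not given in the labels, nor is whether a library stands for 1 animal or a pool, so the spread between libraries may be technical. The design asks which vesicle miRNAs differ with diet. Totals ranged from 48840 counts in Chow 3 and 180694 in Chow 2 to 5941955 in HFD 3, and 3 counts, taken as the limit that a count of 0 allows, correspond to 61.4 CPM (counts per 1000000 counts of the library) in Chow 3, 16.6 in Chow 2 and 0.505 to 1.64 in the other libraries. In bulk material of this kind, fewer vesicles from one source and less miRNA per vesicle cannot be told apart. Of 12 miRNAs listed as abundant in fat, all 12 had counts, and together they held 458337 to 655344 CPM in Chow and 267151 to 329804 CPM in HFD. Most of this was miR-148a-3p, with 396869 to 579832 CPM in Chow and 210226 to 264378 CPM in HFD.

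A miRNA precursor folds into a hairpin from which the enzyme Dicer releases a short duplex, and either of its arms can be loaded into an Argonaute protein to repress messenger RNAs that pair with the seed near its 5′ end. miR-9 is among the most abundant miRNAs of the vertebrate brain, where it is known for controlling the change from dividing neural progenitors to neurons, and both of its arms are functional there. Outside the brain it is known in human monocytes and neutrophils as a miRNA induced through Toll-like receptors that targets NFKB1, and in insulin-producing cells as a repressor of Onecut2.

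The mature sequences below, from RefSeq on GRCm38.p6, are shown because they show which entries cover the same bases. Capitals mark the seed, bases 2 to 8 counted from the 5′ end.
miR-9-5p: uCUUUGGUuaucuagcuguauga
miR-9-3p: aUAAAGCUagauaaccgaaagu
miR-9b-3p: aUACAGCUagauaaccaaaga
miR-9b-5p: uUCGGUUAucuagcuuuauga
No other mature mouse miRNA among the 1679 names of the RefSeq table had the seed of any of these. miR-9b-3p, of 21 bases, is the exact reverse complement of bases 1 to 21 of miR-9-5p. miR-9b-5p is complementary to bases 1 to 19 of miR-9-3p and reaches beyond its 5′ end.

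Both arms of miR-9 are encoded identically at 3 loci, so that a count cannot be assigned to a locus. The hairpins are shown to make this visible, with the mature arms in capitals.
Mir9-1: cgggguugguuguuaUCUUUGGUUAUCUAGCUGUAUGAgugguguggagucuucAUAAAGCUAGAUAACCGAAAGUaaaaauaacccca
Mir9-2: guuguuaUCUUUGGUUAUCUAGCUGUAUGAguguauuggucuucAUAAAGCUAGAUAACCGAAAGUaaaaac
Mir9-3: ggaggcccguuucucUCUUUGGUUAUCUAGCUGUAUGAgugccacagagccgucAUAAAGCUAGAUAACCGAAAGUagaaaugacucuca
The hairpins lie on the plus strand at chr3:88215598-88215686 (Mir9-1), chr13:83738814-83738885 (Mir9-2) and chr7:79505264-79505353 (Mir9-3). They differ in the loop and in the stem outside the arms, and the loop between the arms measures 16, 14 and 16 bases. In GENCODE M21 (GRCm38), Mir9-1 lies within an intron of the noncoding gene Gm3764 and Mir9-3 within an intron of Mir9-3hg, while Mir9-2 overlaps annotated exons of C130071C03Rik. The build used for the deposited counts is not given in the sources used here, and the reference was used for sequences and loci only.

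The 5p arm, miR-9-5p, had 387, 31, 3 and 287 counts in Chow 1 to Chow 4, and 390, 2502 and 4034 in HFD 1 to HFD 3. Scaled to the library total this was 183, 172, 61.4 and 125 CPM in Chow and 198, 1371 and 679 CPM in HFD. HFD 2 and HFD 3 stood above every other library, whereas HFD 1 was close to Chow 1. The exact binomial (Clopper-Pearson) 95% intervals, which here and below reflect counting error alone, since no molecular identifiers are described for the amplified reads, ran from 179 to 219 CPM in HFD 1, from 165 to 202 in Chow 1 and from 117 to 244 in Chow 2, so the order of these neighbours is not resolved. HFD 2, with an interval from 1317 to 1425 CPM, and HFD 3, with one from 658 to 700, differed beyond counting error. Chow 3, with 3 counts, was at its limit.

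The other arm, miR-9-3p, had 154, 105, 1 and 120 counts in Chow 1 to Chow 4 and 1256, 1658 and 4908 in HFD 1 to HFD 3. This was 72.6, 581, 20.5 and 52.3 CPM in Chow, and 638, 908 and 826 CPM in HFD. The HFD libraries lay close together, and among the Chow libraries Chow 2 stood far above the others and just below HFD 1. The interval of Chow 2, from 475 to 703 CPM on 105 counts, included the value of HFD 1. In Chow 1 and Chow 4, the deeper Chow libraries, the intervals ran from 61.6 to 85.1 and from 43.4 to 62.5 CPM. By level within the library, miR-9-3p ranked 160 of 654 detected entries in Chow 1, 78 of 386 in Chow 2 and 189 of 699 in Chow 4, and 74 of 680, 74 of 724 and 66 of 864 in HFD 1 to HFD 3. miR-9-5p ranked 117 in Chow 1 and 138 in Chow 4, and 129, 55 and 72 in HFD 1 to HFD 3.

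**Figure D1:**
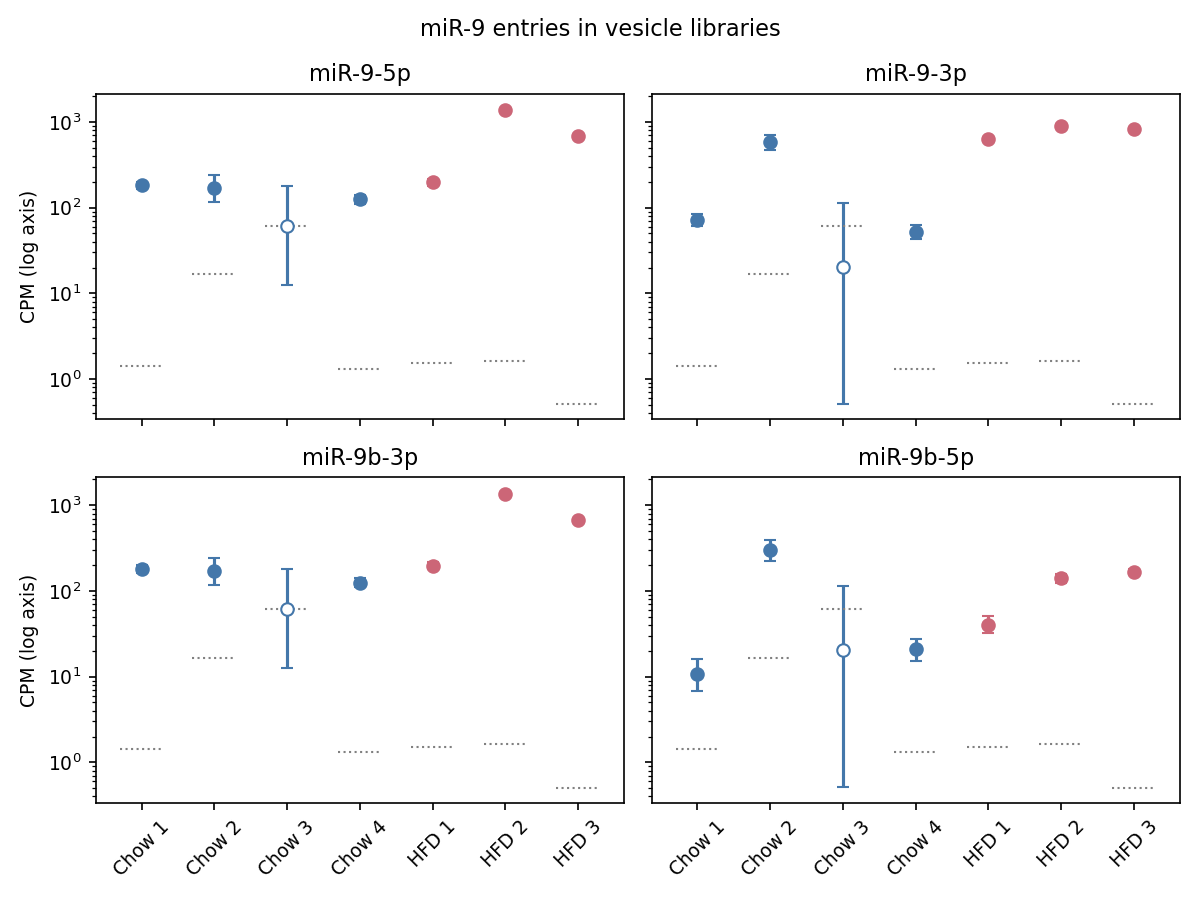
CPM of the library total (log axis) of miR-9-5p, miR-9-3p, miR-9b-3p and miR-9b-5p in each library, Chow in blue and HFD in red, with exact binomial 95% intervals, dotted marks at 3 counts and open points where the count is 3 or fewer. miR-9-5p is high in HFD 2 and HFD 3 only (1371 and 679 CPM), whereas miR-9-3p is high in all 3 HFD libraries (638 to 908 CPM) and in Chow 2 (581 CPM).

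The entry miR-9b-3p followed miR-9-5p almost count for count. Its counts were 382, 31, 3 and 287 in Chow 1 to Chow 4 and 390, 2488 and 4009 in HFD 1 to HFD 3. Over all libraries the totals were 7590 for miR-9b-3p and 7634 for miR-9-5p, a difference of 44 counts, and in 4 of the 7 libraries the values were equal. Because the entries occupy the same bases on opposite strands and the counting is not stated to use strand, their reads cannot be told apart, and miR-9b-3p adds no separate measurement. Other opposite-strand pairs were looked for among the 878 of 1084 entries matched by name to the RefSeq table, so the tally is not complete. Of 16 such pairs sharing at least 12 bases and with at least 50 counts in the higher entry, 7 had a lower entry within 95% of its partner's total, and 3 had the same total.

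The opposite-strand entry of the other arm behaved differently. miR-9b-5p, which is not among the chosen entries, had 23, 54, 1 and 48 counts in Chow 1 to Chow 4 and 80, 257 and 1000 in HFD 1 to HFD 3. Relative to miR-9-3p this was 14.9% in Chow 1 (exact binomial 95% interval 9.71% to 21.6%), 51.4% in Chow 2 (41.5% to 61.3%) and 40.0% in Chow 4 (31.2% to 49.3%). It was 6.37% in HFD 1 (5.08% to 7.86%), 15.5% in HFD 2 (13.8% to 17.3%) and 20.4% in HFD 3 (19.3% to 21.5%). The share thus varied between libraries of the same diet beyond these intervals, with the ranges of the diets overlapping. The intervals treat the miR-9b-5p counts as a part of the miR-9-3p counts, which is not known. They leave out the counting error of miR-9-3p itself. Its fitted log2 fold change, HFD against Chow, was 0.40 (SE 0.92), against 2.02 (SE 0.74) for miR-9-3p. The difference between these fold changes was not tested.

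With scaling by the trimmed mean of M-values (TMM), the mean normalised CPM of miR-9-5p was 151 ± 78.8 on chow (SD, n = 4) and 657 ± 492 on HFD (SD, n = 3). The fitted log2 fold change was 2.04 (SE 0.61). For miR-9-3p it was 169 ± 219 on chow (SD, n = 4) and 706 ± 104 on HFD (SD, n = 3), with a fitted log2 fold change of 2.02 (SE 0.74). The fold changes of both arms were thus alike in size but came from unlike libraries. For miR-9-5p the spread was in HFD, where the highest library exceeded the lowest 6.40-fold, and for miR-9-3p it was in Chow, where the corresponding ratio was 22.4 and rests on 1 count in Chow 3.

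Single libraries moved both values. Without HFD 2 the log2 fold change of miR-9-5p was 1.40 and without HFD 1 it was 2.65. Without Chow 2 that of miR-9-3p was 3.34, and without Chow 2 and Chow 3 together 3.15, against 1.73 for miR-9-5p. With sample weights in limma-voom miR-9-3p had 2.96. In all 17 alternatives both arms kept a positive value.

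**Figure D2:**
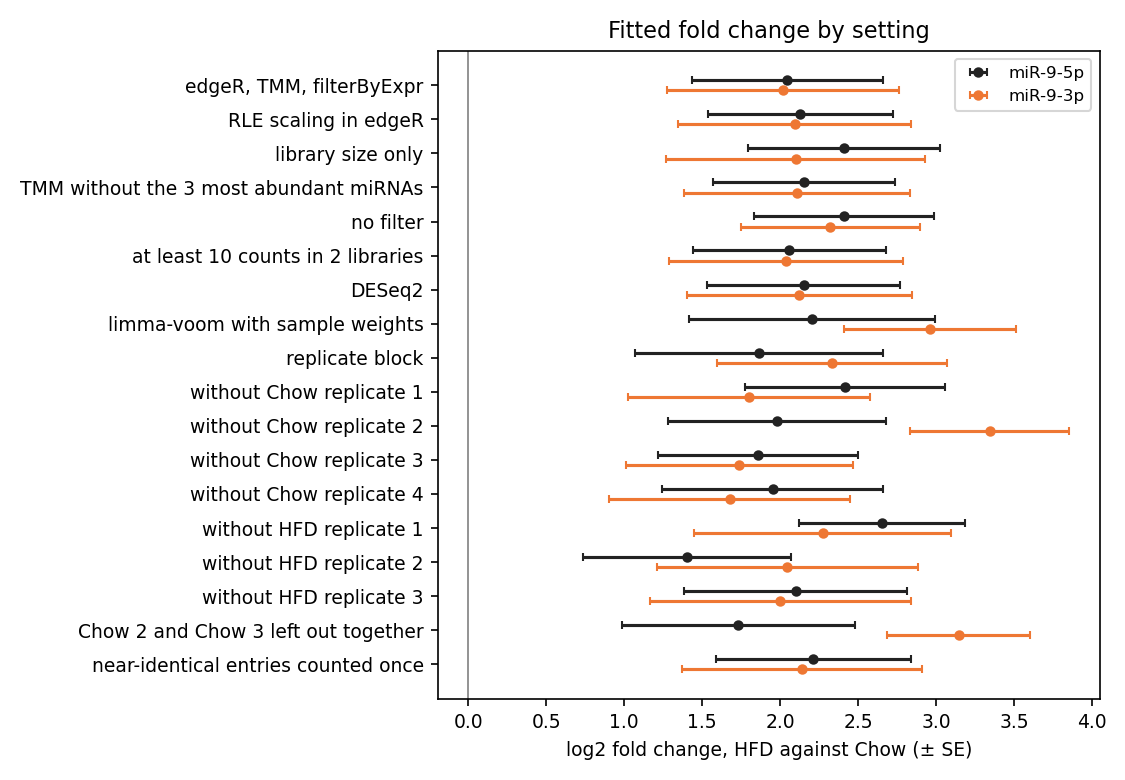
Fitted log2 fold change, HFD against Chow, with its SE (bars) for miR-9-5p (black) and miR-9-3p (orange) in the edgeR model and under each alternative. miR-9-5p ranges from 1.40 to 2.65 when single libraries are left out, and miR-9-3p is highest, at 3.34, without Chow 2.

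In the edgeR quasi-likelihood fit of the whole table, 11 of 385 tested entries passed an adjusted p of 0.05 (2.86%), 2.08% of the tested entries higher in HFD, and none of the 3 miR-9 entries was among them. All 3 had an unadjusted p under 0.05, as did 24.2% of the tested entries. DESeq2 called all 3, where 7.71% of its tested entries were called higher in HFD, and limma-voom with sample weights called 1, miR-9-3p, where 3.38% of entries were called higher. Since the reads of miR-9-5p and miR-9b-3p cannot be told apart, they are not counted as separate results, and nothing is read from the counts because the entries were chosen with this contrast known. Whether the diets overlapped also depended on the scaling for miR-9-5p. Every HFD library was above every Chow library in CPM of the library total, as for 21.3% of tested entries, but in normalised CPM HFD 1 (182) was below Chow 1 (257). For miR-9-3p the diets did not overlap on either scale, and in normalised CPM this held for 13.0% of tested entries, with Chow 2 at 494 and HFD 1 at 587.

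The arm ratio does not depend on the depth or the scaling of a library, and as each read is a copy of 1 mature RNA, arms of 23 and 22 bases were compared without a length correction. miR-9-5p made up 71.5% of the counts of both arms in Chow 1 (exact binomial 95% interval 67.5% to 75.3%, 541 counts) and 70.5% in Chow 4 (65.8% to 74.9%, 407 counts). In Chow 2 it made up 22.8% (16.0% to 30.8%, 136 counts). Chow 3 had 4 counts in all and an interval from 19.4% to 99.4%, so that it says little. In HFD 1 the share was 23.7% (21.7% to 25.8%, 1646 counts), in HFD 2 60.1% (58.6% to 61.6%, 4160 counts) and in HFD 3 45.1% (44.1% to 46.2%, 8942 counts). The 5p arm thus had more counts in Chow 1, Chow 4 and HFD 2 beyond counting error, and the 3p arm in Chow 2, HFD 1 and HFD 3. How the counts of each arm relate to its amount of RNA was not measured. As the counting is not stated to use strand, the counts of an arm may include reads of its opposite-strand entry.

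**Figure D3:**
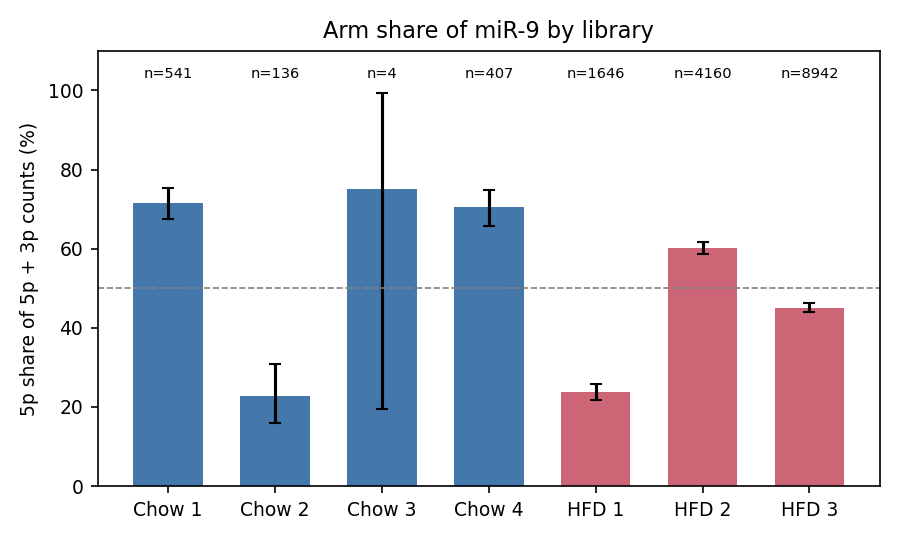
Share of miR-9-5p in the summed counts of miR-9-5p and miR-9-3p in each library (bars, in percent, Chow in blue and HFD in red), with exact binomial 95% intervals, the number of counts above each bar and a dashed line at 50%. Chow 2 and HFD 1 are low at 22.8% and 23.7%, and Chow 1 and Chow 4 are high at 71.5% and 70.5%.

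Set against the other libraries of the same diet, the 2 low shares came with a shift in different arms. In CPM, Chow 2 and HFD 1 were themselves close to each other in both arms. In Chow 2, miR-9-5p (172 CPM) was near its level in Chow 1 and Chow 4, and miR-9-3p was at 581 CPM against 72.6 and 52.3. In HFD 1, miR-9-3p (638 CPM) was near its level in the other HFD libraries, and miR-9-5p was at 198 CPM against 1371 and 679. The mean log2 ratio of 5p to 3p, with 0.5 counts added to each arm, was 0.51 ± 1.51 for the Chow libraries (SD, n = 4) and -0.46 ± 1.15 for the HFD libraries (SD, n = 3). The difference of -0.97 was smaller than the SD within either diet. It lay between -1.73 and -0.36 when single libraries were left out, -0.36 without HFD 1 and -1.73 without Chow 2.

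Arm ratios of other miRNAs were compared over the 6 libraries other than Chow 3. Arms were paired by name, so miRNAs whose arm names differ beyond the 5p and 3p ending were left out. The miR-9b pair was also left out, as its entries lie opposite the miR-9 arms. With at least 20 counts in each arm in each of these libraries, 17 of the pairs formed in this way qualified, miR-9 included. The SD of the log2 ratio over libraries was 1.39 for miR-9, the highest of the 17, against a median of 0.63 and a maximum of 1.14 (miR-30a) for the other 16. By the range over libraries miR-9, with 3.07, came after miR-30e (3.13) and miR-125a (3.08). Between Chow 2 and the mean of Chow 1 and Chow 4, the log2 ratio of miR-9 differed by -3.03, where the others lay between -2.62 and 2.40 with a median of -0.07. Between HFD 1 and the mean of HFD 2 and HFD 3 it differed by -1.84, where the others lay between -1.16 and 2.12 with a median of -0.16. Both differences of miR-9 were the lowest among the 17, but in absolute size that of HFD 1 was exceeded by miR-30e (2.12) and miR-30a (2.04). The libraries set apart here, Chow 2 and HFD 1, are those with the lowest log2 ratio of miR-9 itself. A low rank of miR-9 was thus favoured in advance and is no support. In 3 of the other 16 the arm with more counts changed between libraries, as it did for miR-9. Among these 3 was miR-486a, whose log2 ratio stayed between -0.023 and 0.018. Its 5p and 3p entries had nearly the same values as the entry miR-486b-3p (8.99, 8.99 and 8.98 log2 normalised CPM in Chow 1). Whether these entries share reads was not examined, so the ratio of miR-486a cannot be read as that of 2 separate arms. It is still counted among the 16. These ranks are a description of 6 libraries, with no test.

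**Figure D4:**
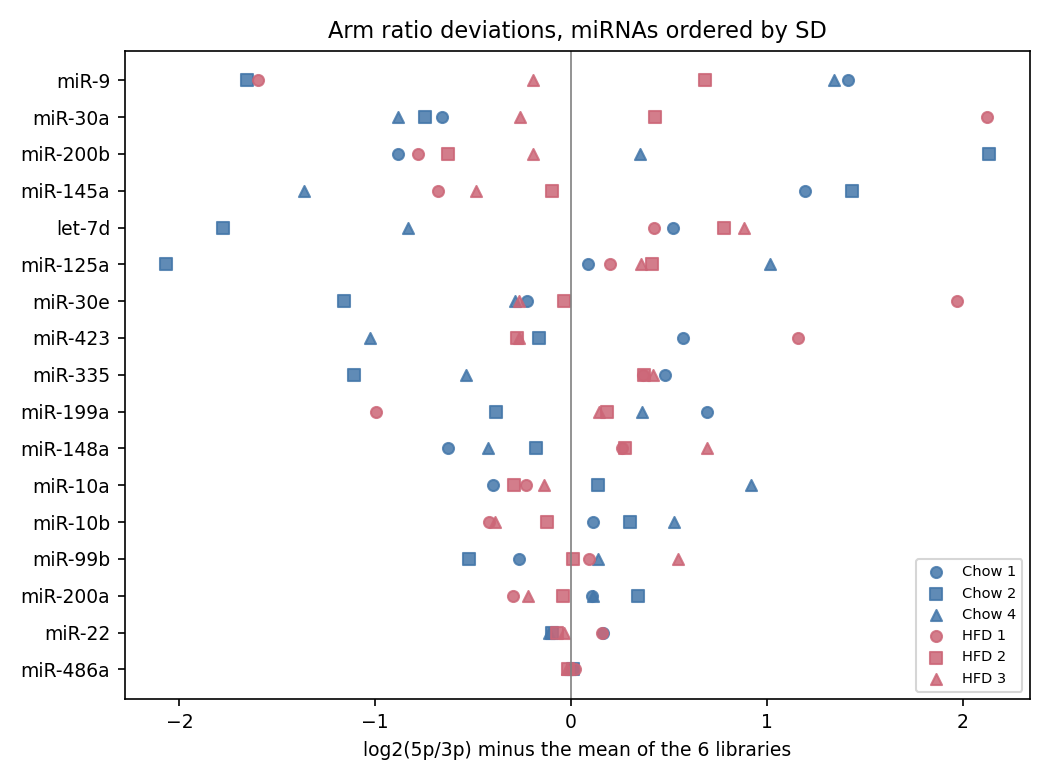
Deviation of the log2 ratio of the 5p to the 3p count from its mean over 6 libraries (Chow 1, 2 and 4 in blue, HFD 1 to 3 in red) for 17 miRNAs, ordered by SD with the highest on top. miR-9 has the highest SD (1.39), with Chow 2 and HFD 1 lowest and Chow 1 and Chow 4 highest.

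The profile of miR-9-5p over the 7 libraries, in log2 normalised CPM, was compared with that of each other entry. Among 381 other tested entries, the highest Pearson correlations were 0.958 for miR-142a-3p, 0.947 for miR-142a-5p, 0.923 for miR-150-5p and 0.916 for miR-146b-5p, with the same value as miR-142a-3p for miR-142b, an entry with its counts. miR-142a is made in blood cell lineages, miR-150 in mature lymphocytes, and miR-146b is induced by inflammatory signals. miR-9-3p had a correlation of 0.731 with miR-9-5p, at place 35 of the tested entries. The points share diet, depth and library, the median correlation over all entries was 0.374, and no p is given. Without HFD 2 and HFD 3, the libraries farthest from the median of miR-9-5p, the 4 values were 0.843, 0.766, 0.850 and 0.672 over 5 libraries. Chow 3, with 3 counts of miR-9-5p and 1 each of miR-142a-3p and miR-150-5p, was among these 5. In a check added after seeing the data, the values without Chow 3 as well were 0.439, 0.059, 0.103 and 0.826 over 4 libraries, so the likeness of miR-142a and miR-150-5p rests on HFD 2, HFD 3 and Chow 3. Without Chow 3 alone they were 0.937, 0.919, 0.920 and 0.927 over 6 libraries.

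The values behind these correlations are given for the HFD libraries first. miR-142a-3p stood at 188, 978 and 557 normalised CPM in HFD 1 to HFD 3, and miR-9-5p at 182, 1165 and 624. In Chow 1 to Chow 4 miR-142a-3p stood at 119, 51.7, 22.0 and 106, the value of Chow 3 resting on 1 count. miR-150-5p stood at 216, 947 and 347 normalised CPM in HFD 1 to HFD 3. HFD 1 was the lowest and HFD 2 the highest of the HFD libraries for these 3 miRNAs, which are shown for their likeness. miR-146b-5p was highest in HFD 3, with 4491, 7303 and 7768 normalised CPM in HFD 1 to HFD 3. At the other end were miR-152-3p with -0.906 and miR-122-5p, a liver miRNA, with -0.837, a value shared by its opposite-strand entry miR-122b-3p.

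**Figure D5:**
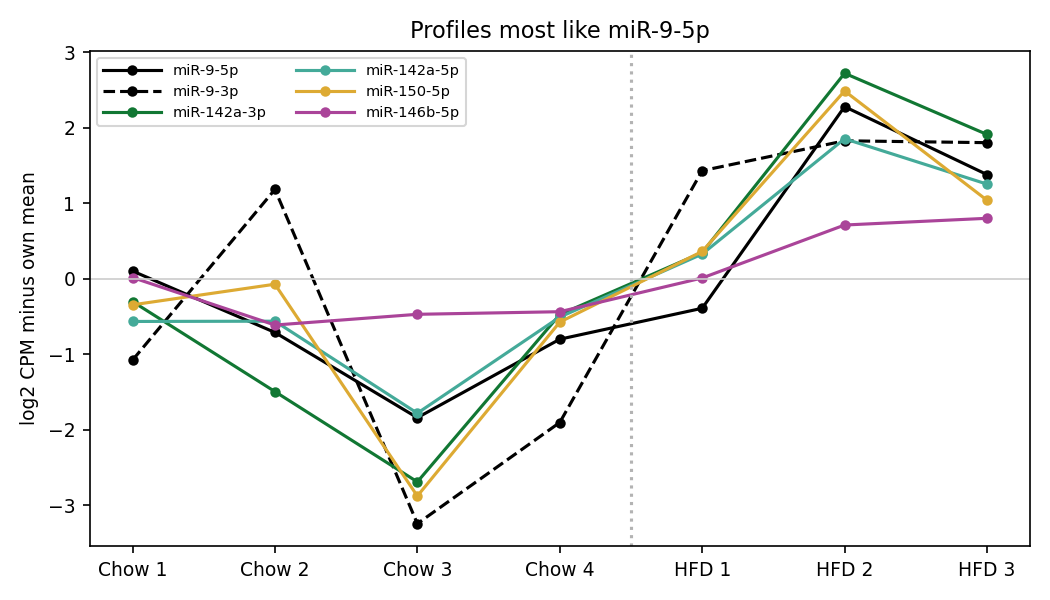
Log2 normalised CPM minus the own mean over the 7 libraries for miR-9-5p (solid black), miR-9-3p (dashed black) and the 4 separate miRNAs most like miR-9-5p (colours), with a dotted line between the diets; lines only join the values of 1 miRNA. Among the HFD libraries, miR-142a-3p, miR-142a-5p and miR-150-5p are, like miR-9-5p, lowest in HFD 1 and highest in HFD 2. In HFD 1 they nevertheless stand above every Chow library, whereas miR-9-5p is below Chow 1. miR-9-3p is high in Chow 2 and HFD 1.

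Among leukocyte miRNAs on a list of 10 names, all 10 were tested, 4 passed higher in HFD (2.08% of all tested entries) and none lower, and the median log2 fold change was 1.81, against -0.02 over all tested entries. Their summed level was 369 to 1328 CPM in Chow and 3059, 7928 and 4895 CPM in HFD 1 to HFD 3. miR-142a-5p had a log2 fold change of 2.03 (SE 0.47) and miR-342-3p, a miRNA of lymphocytes and macrophages, 2.64 (SE 0.53), both called, while miR-150-5p with 2.13 (SE 0.61) was not. Of the 14 miRNAs induced by Toll-like receptor and NF-kB signalling, 10 were tested, 1 passed higher (miR-21a-5p, log2 fold change 1.75, SE 0.38) and none lower, and the median was 0.61. Their sum was 23485 to 44955 CPM in Chow and 126365 to 150909 CPM in HFD, with miR-21a-5p as the main part. The leukocyte sum had the same order over the HFD libraries as miR-9-5p, but its largest part was miR-142a-5p (1449, 4522 and 2758 CPM in HFD 1 to HFD 3). Not all members had that order. miR-223-3p, a miRNA of neutrophils and monocytes with the largest fold change of the list (log2 3.20, SE 0.64, called), stood at 181, 173 and 208 CPM, and miR-342-3p at 690, 726 and 662 CPM. The part of leukocyte RNA in the miR-9 values was not tested.

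Other miRNAs enriched in brain were listed as well. Of 27 names on the list, 22 were in the table, 21 had counts and 6 were tested. None of these passed in either direction in edgeR, and in normalised CPM none of them had every HFD library above every Chow library (13.0% of tested entries). In CPM of the library total 1 of the 6 did, miR-138-5p (21.3% of tested entries), and the median log2 fold change was -0.10. The sum over the list was 1229 to 2737 CPM in Chow and 1866 to 2195 CPM in HFD, most of it miR-128-3p and miR-218-5p, which are found in many tissues. miR-128-3p had a log2 fold change of -0.18 (SE 0.49), miR-218-5p -0.02 (SE 0.51), miR-598-3p 0.20 (SE 0.49) and miR-129-5p -1.47 (SE 0.67). The neuron-defining miR-124-3p was near 0, with 0, 0, 0 and 1 counts in Chow 1 to Chow 4 and 1, 0 and 4 in HFD 1 to HFD 3. miR-137-3p, also typical of neurons, had 1 count in all, in HFD 3. In Chow 2, where miR-9-3p was high, the listed members did not move together. miR-129-5p was highest there (315 CPM, against 33.5 to 67.1 in the other Chow libraries), miR-218-5p was lowest (393 CPM, against 471 to 938), and miR-128-3p at 1312 CPM was below Chow 4 at 1725. The part of neural RNA in the miR-9 values was not tested.

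Markers of organs outside fat varied by library too. Of 24 testis and epididymis miRNAs, 20 were tested, none passed, 19 had a positive log2 fold change (49.4% of all tested entries) and the median was 1.57. Their sum was 703 to 1447 CPM in Chow and 5225, 2939 and 1331 CPM in HFD 1 to HFD 3, highest in HFD 1, where miR-9-5p was the lowest of the HFD libraries. Of 8 markers of liver, striated muscle and pancreas, 5 were tested and none passed, with a median of 0.58 and sums of 1165 to 3208 CPM in Chow and 1652 to 5004 CPM in HFD. These organs differed in direction, and 3 of the 5 had a positive log2 fold change (49.4% of all tested entries). It was -2.46 (SE 0.70) for miR-122-5p of liver and 1.63 (SE 0.93) for miR-1a-3p of muscle. Of the 12 fat-abundant miRNAs, 2 passed lower in HFD (0.779% of all tested entries), none passed higher and the median was -0.45. They did not move in 1 direction, as 5 of the 12 had a positive log2 fold change (49.4% of all tested entries). In normalised CPM, 4 of the 12 had every HFD library above every Chow library (13.0% of tested entries). The part of these sources in the miR-9 values was not tested.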

How the data were processed

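Small RNA of vesicles from adipose tissue was measured in 4 Chow and 3 HFD libraries. Per the file headers, the authors deposited unnormalised read counts for each mature miRNA. The submitters' processing notes name Bowtie, without a version. Not given in the sources used here are the counter, build, annotation release and strand setting. Values were taken from the combined table of 1084 entries. The separate diet tables held the same values apart from 485 entries blank in Chow 2 and Chow 3, none of them a miR-9 entry.

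Diet was fitted on all entries with the quasi-likelihood test of edgeR 4.0.16 (R 4.3.3), with TMM scaling, filterByExpr and Benjamini-Hochberg adjustment at 0.05, and checked on simulated data. SEs come from the F statistic. Alternatives were other scalings and filters, DESeq2 1.42.0, limma-voom (limma 3.58.1), a replicate block, omitted libraries and near-identical entries counted once. Correlations used log2 CPM with a prior count of 2. Text names the miR-9 entries, entries sharing a seed, the 5 most and 3 least correlated entries and the 4 most abundant members of each list, or fewer. miR-124-3p, miR-137-3p, miR-138-5p, miR-223-3p, miR-30a, miR-30e, miR-125a, miR-486a and miR-486b-3p were named after their values were seen. The miR-9 entries and all lists were chosen with earlier results of these data known.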

Additional observations from a re-analysis of the deposited data

Results flagged for a closer look

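In the 4 Chow libraries, Chow 2 stood apart for 3 values, by a rule that compares the gap between the extreme library and its neighbour with the range of the group (Dixon's rule at its 95% limit). Since the miR-9 entries were chosen with their values known, this is a description and no test of them. For miR-9-3p it was the highest, at 494 normalised CPM, with a gap of 0.830 of the range, just past the limit, and on the log2 scale, tried after seeing the data, the gap was 0.511, within it. For miR-9b-5p it was the highest, at 254 normalised CPM, with a gap of 0.968. For the log2 ratio of miR-9-5p to miR-9-3p it was the lowest, at -1.74, with a gap of 0.966. These are not separate observations, since the ratio uses miR-9-3p and miR-9b-5p lies opposite it. Chance flags about 1 in 20 groups, and 5 values were examined. Chow 2 is the second shallowest library, with 105 counts of miR-9-3p and 54 of miR-9b-5p.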

How the results depend on the processing

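Both miR-9 arms kept a positive fold change in the 17 alternatives, as did miR-9b-3p where it was in the fit (it was left out when near-identical entries were counted once). No fold change moved by more than the pooled SD of log2 CPM within diets, which was 1.06 for miR-9-5p and 1.45 for miR-9-3p, but for miR-9-3p the SD was 1.86 in Chow and 0.22 in HFD, and its move to 3.34 without Chow 2 exceeded its SE of 0.74. When single libraries were left out, the log2 fold change ranged from 1.40 to 2.65 for miR-9-5p, from 1.41 to 2.65 for miR-9b-3p and from 1.68 to 3.34 for miR-9-3p, and the arm ratio difference from -1.73 to -0.36. miR-9-5p was called in 6 and miR-9-3p in 4 of 17 alternatives, given here with the calls among all tested entries. Both arms were called without a filter (62 of 1042) and in DESeq2 (49 of 415). Only miR-9-5p was called with library size only (39 of 385) and with TMM without the 3 most abundant miRNAs (25 of 385). The same held without Chow 1 (32 of 377) and without HFD 1 (11 of 405). Only miR-9-3p was called in limma-voom (19 of 385) and without Chow 2 (4 of 377). Nothing is read from these counts. The number of all calls moved more, from 11 to 18 with RLE scaling, 39 with library size only, 25 with TMM without the 3 most abundant miRNAs, 62 without a filter, 49 in DESeq2, 19 in limma-voom and 23 with a replicate block, and it ranged from 0 (without HFD 2, 57 at an unadjusted p under 0.05) to 32 (without Chow 1). Without Chow 2 and Chow 3 together it was 0 in edgeR, with 95 at an unadjusted p under 0.05; the cause was not tested, and no other tool was run on these libraries. Of the calls 72.7% were higher in HFD, against 92.3% with library size only, where the median log2 fold change of all entries shifted by 0.33, and 84% with TMM without the 3 most abundant miRNAs. With the replicate block miR-9-5p had 1.86 and miR-9-3p 2.33. Deviations from the diet means had correlations of 0.067, -0.164 and 0.035 between libraries of the same number. Between libraries of different numbers they ranged from -0.293 to 0.309. What the number stands for is not given, and these few values cannot show whether it pairs libraries. Depth limits Chow 3, where the miR-9 entries had 1 to 3 counts.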
